A study of Homo sapiens with 4 samples.

Results

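The DLX genes encode homeodomain transcription factors related to Drosophila Distal-less. In HEK293 cells they were examined through every EZH2 peak lying within 20 kb of a DLX gene start. The 6 genes lie as neighbours in 3 pairs, DLX1 with DLX2, DLX3 with DLX4 and DLX5 with DLX6, so the windows of each pair were merged and each pair was counted once. This gave 15 peaks of 66093 in the series, 5 of the 35016 in the H3.1-K27M list and 10 of the 31077 in the H3.1-WT list. The gene starts were known only to the nearest kb, and they place the DLX1/DLX2 pair in band 2q31.1, DLX3/DLX4 in 17q21.33 and DLX5/DLX6 in 7q21.3 (hg19).

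HEK293 is an established human embryonic kidney line. The cells carried a lentivirally delivered histone, either H3.1-K27M, in which lysine 27 of histone H3.1 is replaced by methionine, or H3.1-WT as its control, and both lines were G418-selected, with expression switched on by doxycycline at 1 µg/ml. The labels describe no change to the endogenous histone genes, and nothing used here says whether either line is a single clone. EZH2 was mapped by CUT&RUN, a method that cuts and releases the DNA beside an antibody-bound protein for sequencing, with 200000 cells in each reaction. The background reaction used the HRP-coupled anti-rabbit secondary antibody without a primary one. Each genotype had 1 library of either kind, and the authors deposited 1 list of broad peaks for it, EZH2 called over HRP. Differences between H3.1-K27M and H3.1-WT therefore have no replicate check and were not tested. Read counts are not part of the lists, and depth is unknown. Each peak carries the authors' fold enrichment (EZH2 signal relative to the caller's background) and −log10 q, which describe the peak within its own list.

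EZH2 is the enzyme of PRC2, a Polycomb complex that places methyl groups on lysine 27 of histone H3 at developmental genes kept silent in a given cell type. In mammals PRC2 is found mostly at CpG-rich promoters. The paired DLX genes are transcribed towards each other and share enhancers in the DNA between them. Each pair holds 1 gene of the DLX1, DLX4 and DLX6 branch of the family and 1 of the DLX2, DLX3 and DLX5 branch. DLX1 and DLX2 act in GABAergic interneurons of the forebrain, DLX5 and DLX6 in bone, limb and jaw, DLX3 in skin, hair and teeth, and DLX4 is known from the placenta.

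Promoter sequences are shown for DLX1, DLX2 and DLX6, whose starts cover the 3 outcomes seen in the peak lists. Within 1 kb of the start DLX2 had a peak in both lists, DLX6 in the H3.1-WT list alone, and DLX1 in neither. The sequences are from RefSeq (GRCh38.p14), run 5′ to 3′ from 250 bases before to 50 bases after the annotated start, and have each CG dinucleotide in capitals. They were not placed on the hg19 peaks base by base. DLX3, DLX4 and DLX5 were not matched in that table, so 3 of the 6 members are covered.
DLX1 (chr2:172085257-172085556, plus strand): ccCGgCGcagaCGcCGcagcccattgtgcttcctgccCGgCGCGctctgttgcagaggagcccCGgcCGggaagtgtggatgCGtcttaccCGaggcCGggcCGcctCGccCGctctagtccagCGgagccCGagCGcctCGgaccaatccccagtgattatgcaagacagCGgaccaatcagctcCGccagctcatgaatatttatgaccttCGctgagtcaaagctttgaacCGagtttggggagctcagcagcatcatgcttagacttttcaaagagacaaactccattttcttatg
DLX2 (chr2:172102851-172103150, minus strand): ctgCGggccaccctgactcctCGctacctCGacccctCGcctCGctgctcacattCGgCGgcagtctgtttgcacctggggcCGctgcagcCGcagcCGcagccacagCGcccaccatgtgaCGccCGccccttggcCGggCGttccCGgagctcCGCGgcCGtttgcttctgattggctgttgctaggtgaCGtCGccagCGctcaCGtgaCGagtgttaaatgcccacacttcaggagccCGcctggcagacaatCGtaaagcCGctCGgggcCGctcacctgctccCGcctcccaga
DLX6 (chr7:97005303-97005602, plus strand): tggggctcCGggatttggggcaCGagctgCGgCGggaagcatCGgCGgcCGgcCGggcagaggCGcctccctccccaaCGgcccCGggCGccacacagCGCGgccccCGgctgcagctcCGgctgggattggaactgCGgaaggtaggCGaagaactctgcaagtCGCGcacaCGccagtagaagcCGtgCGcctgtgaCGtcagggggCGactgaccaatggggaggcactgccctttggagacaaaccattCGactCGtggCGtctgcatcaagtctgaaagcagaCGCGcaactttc
The DLX1 promoter held 23 CG dinucleotides, and 35.8% of the 35116 RefSeq promoters of the same length held at least as many. The DLX2 and DLX6 promoters held 30 each, which 22.4% of promoters reached, against a median of 14 over all promoters. CG reads the same on both strands. GC content was 59.0% for DLX1, 67.7% for DLX2 and 67.0% for DLX6, and its median was 58.7% over all promoters. The homeodomain core TAATTA, also the same on both strands, occurred in 0 of these 3 windows and in 4.84% of all promoters. All 3 sequences were therefore above the median in CG, the one without a peak in either list being the lowest of them, which is a description of 3 promoters and not a relation.

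The first question was how much of each DLX pair lay under EZH2 peaks in each genotype. In all 3 pairs the H3.1-K27M list had fewer peaks and fewer covered bases. The DLX1/DLX2 interval (chromosome 2, 172930001 to 172987000, 57 kb) held 1 peak over 767 bases in H3.1-K27M and 2 peaks over 3478 bases in H3.1-WT. The DLX3/DLX4 interval (chromosome 17, 48027001 to 48093000, 66 kb) held 2 peaks over 2351 bases in H3.1-K27M and 4 peaks over 5053 bases in H3.1-WT. The DLX5/DLX6 interval (chromosome 7, 96615001 to 96674000, 59 kb) held 2 peaks over 788 bases in H3.1-K27M and 4 peaks over 4759 bases in H3.1-WT. The ratio of covered bases, H3.1-K27M over H3.1-WT, was 0.221, 0.465 and 0.166 in this order, and 0.294 over the 3 intervals together (3906 bases in H3.1-K27M, against 13290 in H3.1-WT). Over all autosomes the same ratio was 1.04, above that of each DLX interval.

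All 3 intervals held a peak in both lists, where 20.7% of 48822 autosomal windows of 59 kb, the median interval length, did so. A peak was present in 29.3% of these windows in H3.1-K27M and in 37.8% in H3.1-WT. Fewer bases were covered in H3.1-K27M in 3 of 3 DLX intervals, against 55.2% of the 10091 windows with a peak in both lists and 61.4% of the 22663 windows with a peak in either. The direction was therefore also the more frequent one over the autosomes. The size of the difference varied among the pairs. A ratio no higher than that of DLX5/DLX6 occurred in 4.76% of windows of its length with peaks in both lists, that of DLX1/DLX2 in 8.33%, and that of DLX3/DLX4 in 26.9%.

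The DLX intervals were more densely covered than the autosomes as a whole in both lists, by a small margin for DLX1/DLX2 and DLX5/DLX6 in H3.1-K27M and by a larger one in H3.1-WT. Peaks covered 1.35% of the DLX1/DLX2 interval in H3.1-K27M, against 6.1% in H3.1-WT. They covered 3.56% of DLX3/DLX4 in H3.1-K27M, against 7.66% in H3.1-WT, and 1.34% of DLX5/DLX6 in H3.1-K27M, against 8.07% in H3.1-WT. Of all autosomal bases, 1.2% lay under H3.1-K27M peaks and 1.15% under H3.1-WT peaks. As many bases or more were covered in 18.6% of autosomal windows of the same length for DLX1/DLX2 in H3.1-K27M and in 4.45% in H3.1-WT. For DLX3/DLX4 these shares were 9.16% in H3.1-K27M, against 2.6% in H3.1-WT, and for DLX5/DLX6 18.7% in H3.1-K27M, against 2.51% in H3.1-WT. The windows include gene-poor and unsequenced DNA, since no hg19 gene annotation was used, so these shares do not set the DLX genes against other genes.

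The neighbouring DNA showed the same direction between the genotypes. In the flanks, from 20 to 500 kb on either side of each pair, peaks covered 0.167% of bases in H3.1-K27M, against 1.07% in H3.1-WT beside DLX1/DLX2. Beside DLX3/DLX4 the flanks were covered to 0.814% in H3.1-K27M, against 2.26% in H3.1-WT, and beside DLX5/DLX6 to 0.0502% in H3.1-K27M, against 0.408% in H3.1-WT. The ratio of covered bases, H3.1-K27M over H3.1-WT, was 0.276 over all flanks (12 peaks and 9901 bases in H3.1-K27M, against 34 peaks and 35921 bases in H3.1-WT), close to the 0.294 of the intervals themselves. Fewer bases were covered in H3.1-K27M in the flanks of all 3 pairs, which leave out the DLX intervals. Over all autosomes the ratio was 1.04. No share of autosomal stretches as long as the flanks stands beside this count or the flank ratio. Whether the flanks differ from other stretches was therefore not tested. The share of bases covered was higher in the intervals than in their flanks in both lists, by 6.25 times in H3.1-K27M and 5.84 times in H3.1-WT over the 3 pairs. The contrast was greatest at DLX5/DLX6, where the flanks held 1 peak in H3.1-K27M, against 5 in H3.1-WT.

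**Figure D1:**
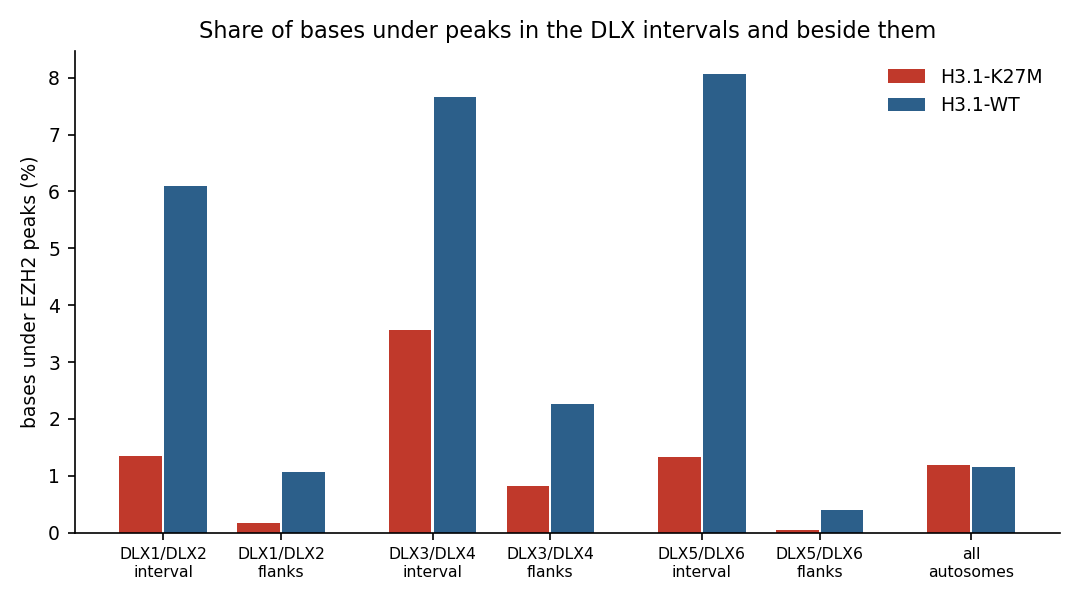
Share of bases under EZH2 peaks (%) in each DLX interval, in the flanks from 20 to 500 kb on both sides of each pair, and on all autosomes, with 1 bar per peak list, so there are no error bars. H3.1-K27M bars stand below H3.1-WT bars in every interval and flank, while the autosomal bars are 1.2% in H3.1-K27M, against 1.15% in H3.1-WT.

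The second question was where in each pair the peaks lay. In H3.1-K27M 4 of the 5 peaks lay over a gene start or within 1 kb of one, and in H3.1-WT 5 of the 10, and the starts differed from each other. The rounded start lay inside a peak for 1 of 6 genes in H3.1-K27M (DLX2), where 1.2% of all whole-kb positions of the autosomes did. In H3.1-WT it did so for 4 of 6 (DLX2, DLX3, DLX5 and DLX6), against 1.15% of positions. A rounded start can be off by 500 bases. Inside or outside could therefore not be resolved for DLX2, DLX3 and DLX5 in H3.1-K27M, nor for DLX2 and DLX3 in H3.1-WT, where a peak edge lay closer than that. The DLX5 and DLX6 starts were inside an H3.1-WT peak by more than 500 bases. Starts with a peak within 1 kb were counted as well. By that measure 4 of 6 starts had a peak in H3.1-K27M (DLX2, DLX3, DLX4 and DLX5), against 3.1% of positions, and 5 of 6 in H3.1-WT, all but DLX1, against 3.13% of positions. Starts of other genes were not placed in hg19 here, so these counts do not set the DLX starts against other gene starts. For the same reason the share of all peaks that lie near a gene start is unknown. The counts of DLX peaks near a start therefore have no such share beside them.

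DLX2, a regulator of interneuron formation, had its rounded start inside a peak of both lists, by 115 bases in H3.1-K27M, against 314 in H3.1-WT, which the nearest-kb precision cannot resolve. The H3.1-K27M peak (chromosome 2, 172966349 to 172967115) spanned 767 bases at a fold enrichment of 3.33 and a −log10 q of 1.48. The H3.1-WT peak (172966686 to 172968651) spanned 1966 bases at a fold enrichment of 3.63 and a −log10 q of 2.25. They shared 430 bases, 56.1% of the H3.1-K27M peak and 21.9% of the H3.1-WT peak, and the H3.1-WT peak ran further on the side away from DLX1. In H3.1-K27M this was the sole peak of the DLX1/DLX2 interval.

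DLX1, the partner of DLX2 in the forebrain, was the start without a close peak in either list. The nearest H3.1-K27M peak was the one at DLX2, 16.35 kb away. The nearest H3.1-WT peak (172958771 to 172960282) was 8.77 kb away, between the paired starts, with a fold enrichment of 2.89 and a −log10 q of 1.04. That is close to the lowest −log10 q of the H3.1-WT list, 1.01, and 0.599% of that list had a lower value. The H3.1-K27M list had no peak there.

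DLX3, which acts in epidermis, hair and enamel, carried the strongest H3.1-WT peak of the family. In H3.1-K27M the peak (chromosome 17, 48071524 to 48072547) was 1024 bases wide, ended 453 bases short of the rounded start, and had a fold enrichment of 3.38 and a −log10 q of 1.85. In H3.1-WT the peak (48070978 to 48073196) was 2219 bases wide and contained the rounded start by 196 bases, with a fold enrichment of 5.56 and a −log10 q of 7.36. The whole H3.1-K27M peak lay within the H3.1-WT peak, 46.1% of which it filled. In fold enrichment the H3.1-K27M peak ranked above 55.9% of its list, and the H3.1-WT peak above 95.9% of its own.

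DLX4, the other member of that pair, had overlapping peaks just outside its start, on the side away from DLX3. The H3.1-K27M peak (48045008 to 48046334) spanned 1327 bases at a fold enrichment of 3.04 and a −log10 q of 1.66, and its edge lay 666 bases from the start. The H3.1-WT peak (48045355 to 48046455) spanned 1101 bases at a fold enrichment of 3.98 and a −log10 q of 3.11, and its edge lay 545 bases from the start. This was the single site of the 4 overlapping ones at which the H3.1-K27M peak was the wider. Near DLX4 the H3.1-WT list had further peaks that no H3.1-K27M peak overlapped. One (48048567 to 48049779, fold enrichment 3.23) lay 1.57 kb from the start towards DLX3, and the other (48029871 to 48030390, fold enrichment 3.99) 16.61 kb away on the other side.

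DLX5, a regulator of bone and jaw formation, had a narrow H3.1-K27M peak within a wide H3.1-WT peak. The H3.1-K27M peak (chromosome 7, 96653635 to 96653970) was 336 bases wide, ended 30 bases short of the start, which the nearest-kb precision cannot resolve, and had a fold enrichment of 3.74 and a −log10 q of 1.99. The H3.1-WT peak (96652954 to 96655182) was 2229 bases wide and contained the start, with a fold enrichment of 4.40 and a −log10 q of 4.09. It was the widest peak of the 3 intervals, and the H3.1-K27M peak filled 15.1% of it. A further H3.1-WT peak (96656850 to 96657117, fold enrichment 3.84) lay 2.85 kb from the DLX5 start on the side away from DLX6, with no H3.1-K27M counterpart.

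DLX6, the partner of DLX5 in limb and jaw, had a peak over its start in H3.1-WT alone. No H3.1-K27M peak lay within 10 kb of the start, the nearest being 10.35 kb away towards DLX5. The H3.1-WT peak, 1987 bases wide (96634349 to 96636335), contained the start, with a fold enrichment of 3.50 and a −log10 q of 1.77. Between the paired starts each list had 1 short peak near the middle, in H3.1-K27M from 96645347 to 96645798 (fold enrichment 3.15) and in H3.1-WT from 96645897 to 96646171 (fold enrichment 3.16). These missed each other by 98 bases and were not counted as shared. Their −log10 q was 1.20 in H3.1-K27M, against 1.26 in H3.1-WT, and 7.31% of the H3.1-K27M list and 10.7% of the H3.1-WT list had lower ones.

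**Figure D2:**
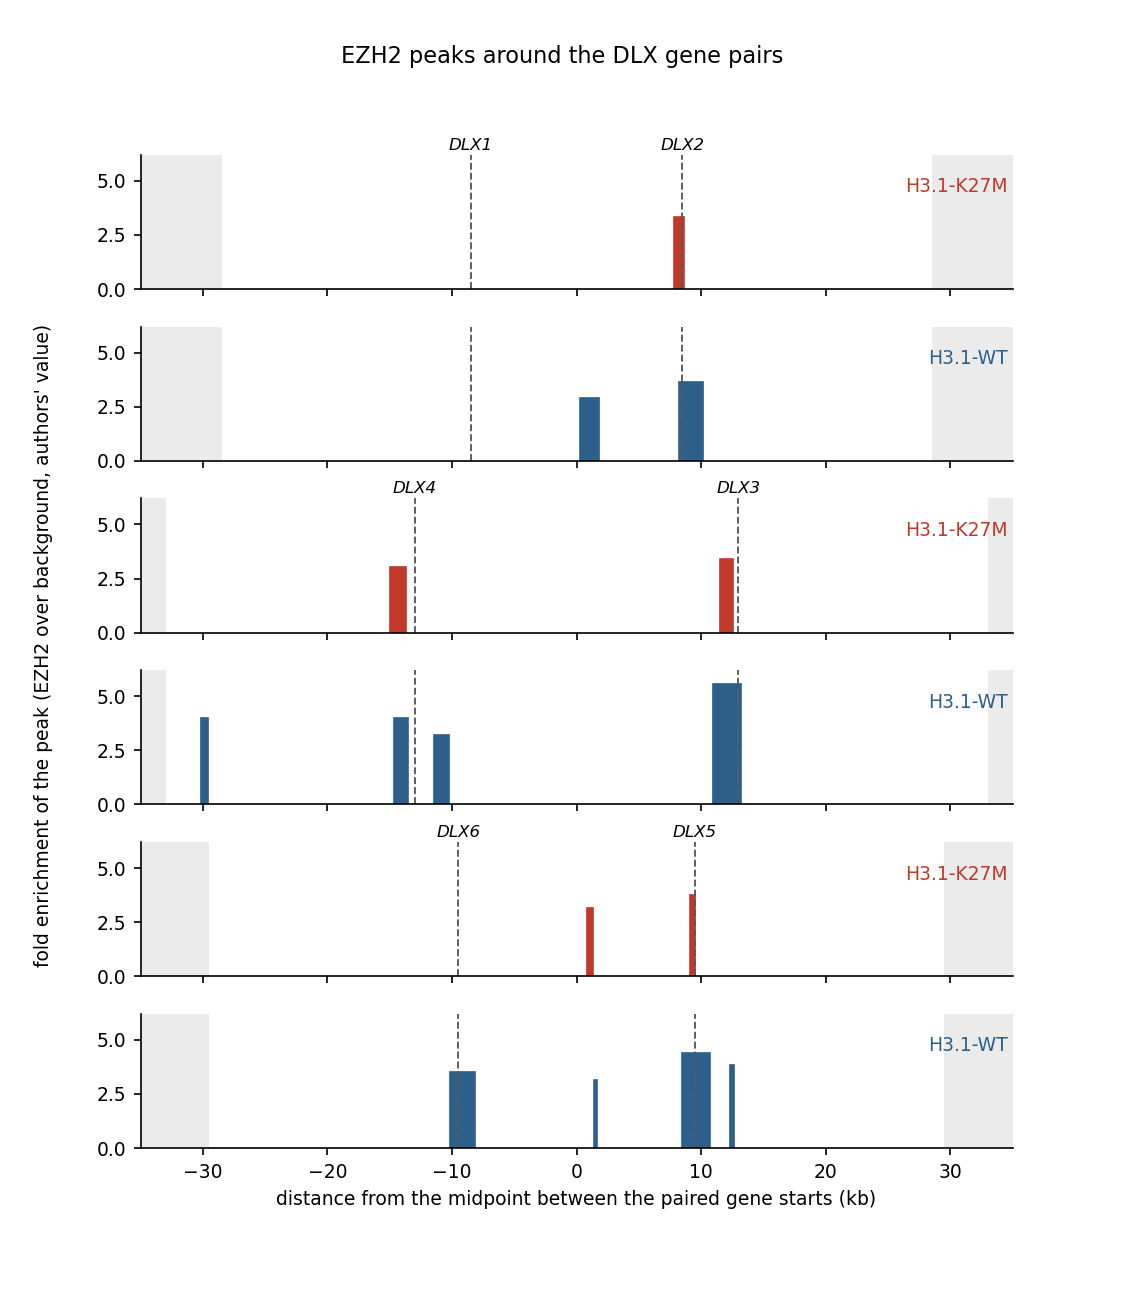
EZH2 peaks in the 3 DLX intervals, with the distance from the midpoint between the paired gene starts (kb) on the x axis and the authors' fold enrichment of each peak on the y axis. Bar widths are peak widths to scale, dashed lines mark gene starts to the nearest kb, and grey areas lie outside the interval. Each pair has its H3.1-K27M list above its H3.1-WT list. A peak lies within 1 kb of the rounded DLX2, DLX3, DLX4 and DLX5 starts in both lists. For the rounded DLX6 start this is so in H3.1-WT alone.

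Within each pair the peak with the highest fold enrichment was the one nearest to the DLX2, DLX3 or DLX5 start. This was so in 6 of 6 combinations of pair and list, of which 5 had more than 1 peak to choose from, and the same peaks had the highest −log10 q. In H3.1-K27M the values were 3.33 at DLX2, 3.38 at DLX3 and 3.74 at DLX5. In H3.1-WT they were 3.63 at DLX2, 5.56 at DLX3 and 4.40 at DLX5. The starts of the DLX1, DLX4 and DLX6 branch had no close peak (DLX1), a peak of lower fold in both lists (DLX4) or a peak in H3.1-WT alone (DLX6). This ordering rests on 3 pairs, was noticed in the data and was not tested. The order among DLX2, DLX3 and DLX5 differed between the lists, and without replicates no spread can be set against it.

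**Figure D3:**
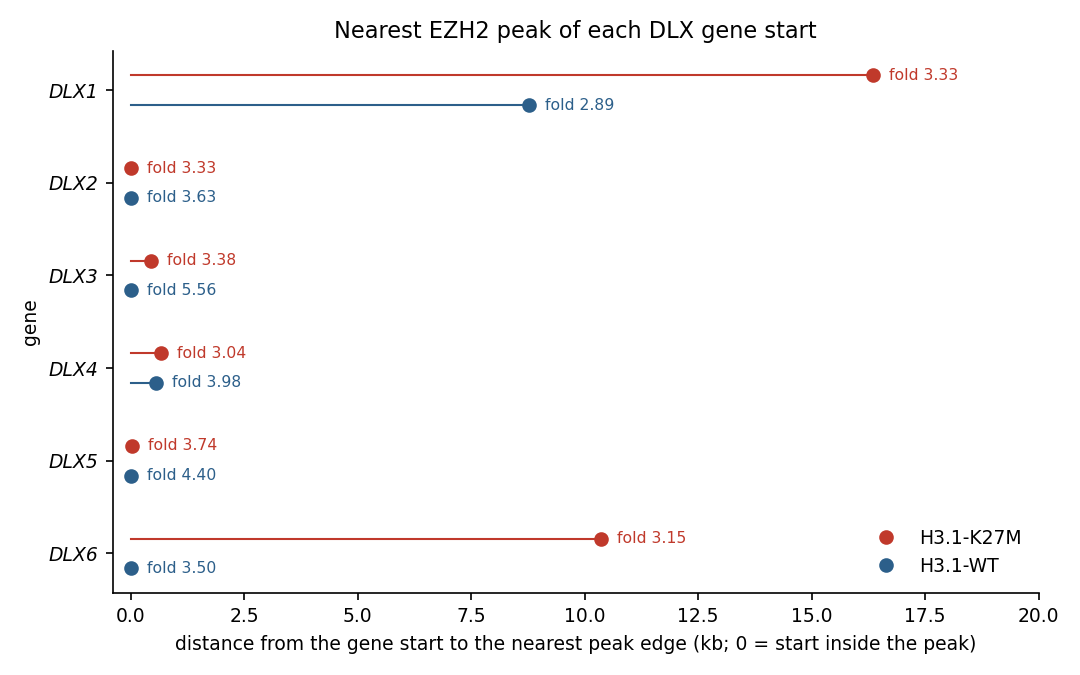
Distance (kb) from each DLX gene start to the edge of the nearest EZH2 peak, 0 where the start lies inside the peak, with 1 point per list and the authors' fold enrichment of that peak beside it. DLX2 is at 0 in both lists with starts taken to the nearest kb, DLX1 is far from a peak in both (16.35 kb in H3.1-K27M, against 8.77 kb in H3.1-WT), and DLX6 is at 10.35 kb in H3.1-K27M, against 0 in H3.1-WT.

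The third question was how strong these peaks were among all peaks of their list. The DLX peaks of H3.1-K27M lay around the middle of their list in fold enrichment. Their fold enrichment ran from 3.04 to 3.74, with a median of 3.33 that equalled the list's median of 3.33 at this rounding. None of the 5 reached a −log10 q of 2, which 24.5% of the H3.1-K27M list did, and none reached 5, which 1.87% did. Widths ran from 336 to 1327 bases around a median of 767, against 825 in the list.

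The DLX peaks of H3.1-WT lay somewhat higher in their own list. Fold enrichment ran from 2.89 to 5.56, with a median of 3.74 against 3.42 in the list. A −log10 q of 2 was reached by 6 of 10, against 41.9% of the H3.1-WT list, and a −log10 q of 5 by 1, the peak at DLX3, against 6.78%. By interval, 0 of 3 held a peak of that strength in H3.1-K27M, against 1.31% of windows, and 1 of 3 in H3.1-WT, against 4.07%. Widths ran from 268 to 2229 bases with a median of 1362.5, against 778 in the list. The widest, at DLX5, exceeded 89.4% of the list, so none of the DLX intervals held one of the widest domains of the list. A q value depends on the depth of both libraries, which is unknown, so these counts describe calls and not amounts of bound EZH2.

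**Figure D4:**
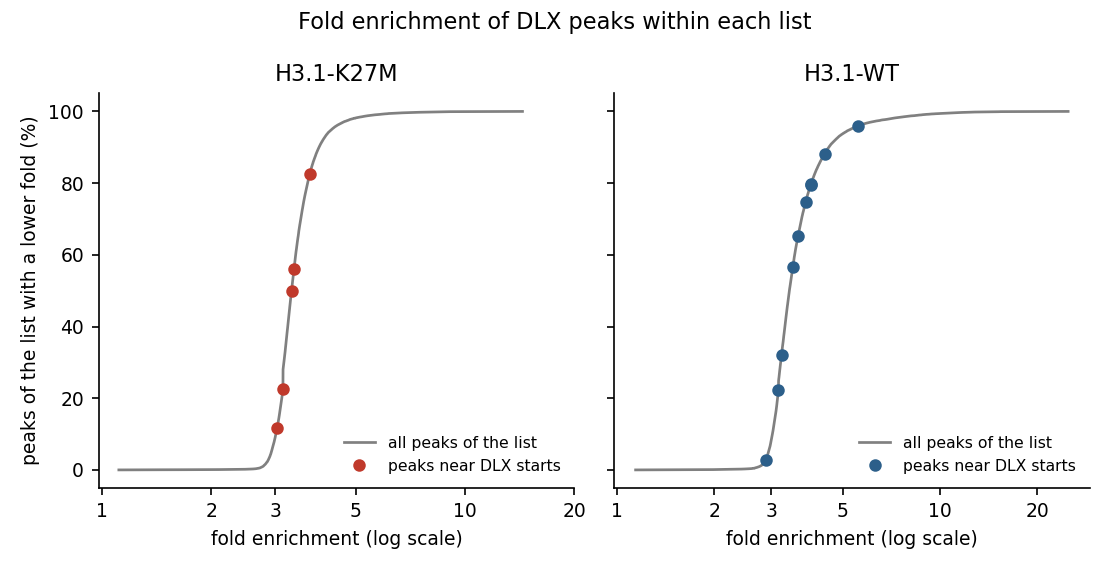
Fold enrichment (log scale) of the DLX peaks within each list, with the share of the list's peaks that had a lower fold (%) on the y axis; grey lines are all 35016 H3.1-K27M and 31077 H3.1-WT peaks and points the 5 and 10 DLX peaks. The H3.1-K27M points reach 82.6% of their list and the H3.1-WT points 95.9%.

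The fourth question was whether both lists marked the same sites. Of the H3.1-K27M DLX peaks, 4 of 5 met an H3.1-WT peak over at least 1 base (80.0%, exact 95% interval 28.4% to 99.5%), against 31.6% of the whole H3.1-K27M list. Of the H3.1-WT DLX peaks, 4 of 10 met an H3.1-K27M peak (40.0%, 12.2% to 73.8%), against 36.0% of the whole H3.1-WT list. These 95% intervals cover counting error only, and they are wide because the peaks are few. Each contains the share of its whole list. However, all 5 H3.1-K27M DLX peaks had a −log10 q under 2. Of that list's peaks under 2, 22.9% were overlapped, which lies below the interval of 28.4% to 99.5%. This difference was not tested. The whole-list shares, like those of −log10 q, include peaks outside the autosomes, whereas every DLX peak is autosomal. Autosomal peaks numbered 28323 of 35016 in H3.1-K27M, against 29018 of 31077 in H3.1-WT. The whole lists are also not matched for density. H3.1-WT peaks covered 7.3% of the 3 DLX intervals, against 1.15% of autosomal bases. Whether this density bears on the share overlapped was not tested. The shared sites were those within 1 kb of the rounded DLX2, DLX3, DLX4 and DLX5 starts. Shared bases made up 70.9% of the H3.1-K27M coverage and 20.8% of the H3.1-WT coverage of the 3 intervals. By pair, 56.1%, 85.2% and 42.6% of the H3.1-K27M coverage was shared at DLX1/DLX2, DLX3/DLX4 and DLX5/DLX6, against 12.4%, 39.7% and 7.06% of the H3.1-WT coverage.

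By strength of the call, 4 of the 6 H3.1-WT DLX peaks that reached a −log10 q of 2 met an H3.1-K27M peak and 0 of the 4 weaker ones did. Over the whole H3.1-WT list these shares were 49.6% of the stronger and 26.2% of the weaker peaks. The unshared peaks that reached 2 were those 16.61 kb from DLX4 (−log10 q 3.09) and 2.85 kb from DLX5 (2.98), and the peak over the DLX6 start was among the weaker ones. The 4 shared H3.1-K27M peaks were all under 2, where 22.9% of that list was shared, against 58.4% of its peaks at 2 or more. Absence of a DLX site from the H3.1-K27M list does not show that EZH2 was absent there, because a weak site falls out of a list with depth, and depth is unknown.

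The distance of 20 kb did not set the number of peaks closely. The farthest peaks inside were 8.2 kb from a start in H3.1-K27M and 16.61 kb in H3.1-WT. The nearest ones outside were at 59.8 kb in H3.1-K27M (chromosome 17, 48132778 to 48133864, fold enrichment 3.02) and at 58.7 kb in H3.1-WT (chromosome 17, 47986978 to 47988341, fold enrichment 3.36). In the GRCh38.p14 RefSeq table the paired genes are next to each other among protein-coding genes, with METAP1D and ITGA6 beside DLX1/DLX2, TAC4 and ITGA3 beside DLX3/DLX4, and SEM1 and SDHAF3 beside DLX5/DLX6. Peaks were not assigned to these neighbours, because no hg19 positions of them were used.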

How the data were processed

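The authors deposited broad peak lists of EZH2 CUT&RUN in HEK293 cells, 1 per genotype. Per the submitters' processing notes, the build was hg19 and the tools included MACS2, Bowtie2 2.3.5.1, deepTools, Picard and cutadapt, with no roles or parameters. Per the file headers, which here are the peak names, each list sets 1 EZH2 library against 1 HRP library. Genotypes came from the genotype label and antibodies from the titles, where the H3.1-K27M libraries read H31. The deposited fold enrichment is a linear ratio over the caller's background. The deposited −log10 p and −log10 q values are the authors' too.

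Gene starts (hg19, nearest kb) and members were given, and members and lists were chosen with earlier results of these data known. By the rule set beforehand, the 6 genes, every peak within 20 kb, and peaks within 500 kb wider than any of those were named. The nearest peak outside 20 kb in each list and the genes beside each pair were named in addition. Other genes of the DLX pathway were listed beforehand but not analysed here, since no hg19 annotation was used. Peaks overlapped when they shared 1 base, and positions are 1-based. Of all peaks, 0 ended past an hg19 chromosome end. Autosomal windows of equal length were laid end to end. Bands and chromosome lengths came from circlize 0.4.16. Intervals are exact 95% binomial (Clopper-Pearson). Overlap, window coverage and joining were tested on simulated lists. Promoter sequences came from RefSeq, GRCh38.p14. The software was scipy 1.17.1, pandas 2.3.3, numpy 2.4.6 and matplotlib 3.10.9 under Python 3.11.15. The HRP background enters through those calls alone. Depth is unknown, so its effect on the calls cannot be given. Alternatives varied the distance, the q minimum, peak joining, the overlap and the windows.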

Additional observations from a re-analysis of the deposited data

How the results depend on the processing

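Peak number, covered bases and starts inside a peak stayed lower in H3.1-K27M than in H3.1-WT under every alternative run. With a −log10 q of at least 2, H3.1-K27M had 0 peaks, 0 covered bases and 0 starts inside a peak. H3.1-WT then had 6 peaks, 8303 bases and 3 starts. Over the whole lists 24.5% of H3.1-K27M peaks reached that minimum, against 41.9% of H3.1-WT peaks. The DLX5 peak of H3.1-K27M fell just short of it, at 1.99. At a minimum of 5 H3.1-K27M had 0, 0 and 0, against 1 peak, 2219 bases and 1 start in H3.1-WT. Shared H3.1-WT peaks then came to 0% at both minimums, which follows from the empty H3.1-K27M set, and no ratio of bases could be formed. Within 10 kb H3.1-WT had 12770 covered bases and the ratio was 0.306. With peaks within 5000 bases joined, H3.1-WT had 17068 bases and the ratio was 0.229, since joined peaks include the gaps. A reciprocal overlap of 50% left 20% of H3.1-K27M peaks and 10% of H3.1-WT peaks shared. No whole-list share under that rule stands beside these, so the fall is not set against that of other peaks. Taking starts within 1 kb of a peak gave 4 in H3.1-K27M. Adding X to the windows moved the H3.1-K27M shares to 20.8%, 10.9% and 21% for DLX1/DLX2, DLX3/DLX4 and DLX5/DLX6. Leaving out centromeric, variable and stalk bands, chosen after seeing the data, moved them to 19.8%, 9.71% and 19.9%, and that of DLX1/DLX2 in H3.1-WT to 4.71%. Of the recomputed values, 34 stayed within 1.5 times the reported count, or within the 95% interval of the reported share, or were equal. The other 27 moved beyond these limits. No paired analysis was possible because there was 1 library of each kind. Depth, which is unknown, bounds what any comparison of the lists can show.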

Other observations

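Beyond the intervals, 4 peaks within 500 kb of a DLX start were wider than every peak inside them, 1 of the H3.1-K27M list and 3 of the H3.1-WT list. The strongest site lay on chromosome 17, 471.4 kb from the nearest DLX start in H3.1-K27M and 470.3 kb in H3.1-WT. There the H3.1-K27M peak (47572325 to 47575639) spanned 3315 bases at a fold enrichment of 5.22 and a −log10 q of 5.68. The H3.1-WT peak (47571730 to 47576661) spanned 4932 bases at a fold enrichment of 13.6 and a −log10 q of 37.4, and it contained all 3315 bases of the H3.1-K27M peak. The same megabase thus held an EZH2 call in both lists that was stronger than any at the DLX3/DLX4 pair, and the gene under it was not named here.

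The other wide neighbours were in H3.1-WT. On chromosome 17 a peak from 47926963 to 47929271 (2309 bases, fold enrichment 3.95, 117.7 kb from the nearest DLX start) was overlapped by 0 H3.1-K27M peaks. On chromosome 2 a peak from 173291914 to 173294272 (2359 bases, fold enrichment 3.33, 324.9 kb away) had 333 of its bases covered in H3.1-K27M.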
